A study of Mus musculus with 4 samples.

Results

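Eph receptors and ephrins were described in mammary tumours of mice that over-expressed the phosphatase Cdc25a together with neu, compared with tumours of mice carrying neu alone. The 10 genes were 6 Eph receptors (Epha1, Epha2, Epha4, Ephb2, Ephb3 and Ephb4) and 4 ephrins (Efna1, Efna4, Efnb1 and Efnb2), out of 32513 genes or transcripts that passed the signal filter. Their probes were found through accessions given for them, or an Ensembl transcript shared with such a probe, since the array names 5 of the 10 genes only by a contig or clone. The genes had 12 probes, all of which passed the filter. The set was chosen by measured values: Epha2 was selected on its low ratio in this same comparison and the other 9 were listed around it. The ratios of the 10 genes are therefore given as a description, with no test.

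The study compared 2 tumours from MMTV-cdc25a;MMTV-neu mice (Cdc25a;neu below) with 2 tumours from MMTV-neu mice (neu below). All 4 mice were FVB/N females aged 26 weeks, and every tumour was an early mammary tumour of stage T1. Both groups carried the neu transgene, the rodent form of Erbb2, a receptor tyrosine kinase. The mouse mammary tumour virus promoter (MMTV), active mainly in mammary epithelium, drove neu and Cdc25a alike. Each Cdc25a;neu tumour was hybridised with 1 neu tumour on 2-colour Agilent arrays, and each of the 2 pairs was repeated with the dyes swapped, giving 4 arrays. Log2 ratios are Cdc25a;neu over neu throughout, and errors are SDs between the 2 mouse pairs.

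Eph receptors are the largest family of receptor tyrosine kinases, and their ligands, the ephrins, are themselves bound to the cell surface. A-type ephrins are held by a lipid anchor and B-type ephrins span the membrane, so contact between neighbouring cells can signal into both of them. In the mammary gland, the family is known for roles in branching of the ducts, in the sorting of luminal and basal cells and in the vessels of tumours. Epha2 in particular is known as a partner of Erbb2 in mammary tumour models, and Efna1 is its best studied ligand.

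Of the 10 genes, 2 lie on chromosome 4, Epha2 and Ephb2, and the promoters of both are printed because they are a pair of receptor genes of one chromosome with different ratios. The windows run from 250 bases before to 50 bases after the annotated start, 5′ to 3′ along the gene, as given by RefSeq for GRCm38.p6. All 10 genes had an entry there, and Efna1 had 2 windows. Capitals mark the matches to the motifs searched. The Epha2 window is chr4:141300971-141301270 on the plus strand and the Ephb2 window is chr4:136835963-136836262 on the minus strand.
Epha2: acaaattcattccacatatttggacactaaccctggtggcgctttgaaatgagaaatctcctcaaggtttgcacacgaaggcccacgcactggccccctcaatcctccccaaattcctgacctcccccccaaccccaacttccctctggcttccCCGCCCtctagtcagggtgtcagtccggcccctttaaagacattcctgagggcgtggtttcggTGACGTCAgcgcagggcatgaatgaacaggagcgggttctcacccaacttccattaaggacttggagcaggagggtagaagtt
Ephb2: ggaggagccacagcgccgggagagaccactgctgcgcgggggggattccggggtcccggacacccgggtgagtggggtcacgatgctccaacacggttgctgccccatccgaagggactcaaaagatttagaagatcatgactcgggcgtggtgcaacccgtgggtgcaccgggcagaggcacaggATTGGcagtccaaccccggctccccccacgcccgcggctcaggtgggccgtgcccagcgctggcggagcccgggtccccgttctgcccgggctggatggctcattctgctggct

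The Epha2 window held 1 GC box, written CCGCCC on the printed strand, and 1 full cyclic AMP response element (CRE), TGACGTCA. The Ephb2 window held 1 CCAAT box, written ATTGG on the printed strand, and neither of the others. Both strands were searched for 7 motifs, and the matches shown do not overlap one another. The CRE was present in 1 of the 10 genes, Epha2, and in 1.79% of the 32851 promoters of the table. GC boxes (GGGCGG) were present in 7 of the 10 genes and in 35.7% of all promoters. CCAAT boxes were present in 6 of the 10 genes and in 37.4% of all promoters. A TATA box (TATAAA) was present in 1 gene, Efnb2, and in 13.6% of all promoters. No member window held an AP-1 motif (TGANTCA), an ETS motif (CCGGAAG) or an E-box (CACGTG), which were present in 7.81%, 8.86% and 7.15% of all promoters. The GC content was 54.7% in the Epha2 window and 68.7% in the Ephb2 window, against a median of 52.7% over all promoters. These matches describe the letters of the windows and no binding was measured.

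Between 78.5% and 92.2% of the 41534 spots outside controls were well above background in the channel of the Cdc25a;neu tumour, and between 82.7% and 85.2% in that of the neu tumour. Across all genes the mean log2 ratio had a median of 0.0033, and the 5th and 95th percentiles were -0.29 and 0.22. No gene (0, or 0.0%) passed an adjusted p of 0.05 in limma with the 2 pairs as replicates, while 3133 genes had an unadjusted p under 0.05. Other fits called 948 genes with median centring in place of loess, 903 with the 4 arrays fitted and the pair as a random block, and 0 with separate channels. Median centring gave fewer genes with limma's unadjusted p under 0.05, 2590. Its lowest adjusted p in limma was 5.3e-42, against 0.22 with loess. Both fits rest on 2 pairs, so the 948 are not read as firmer than the 0 found with loess. In the random-block fit the correlation within pairs was -0.0079. The 4 arrays thus counted nearly as independent, although the 2 arrays of a pair carry the same RNA, so the 903 do not rest on tumours as replicates. For Erbb2 the pairs gave log2 ratios of 0.45 and 0.85. The brighter Cdc25a probe averaged 0.05 ± 0.06 (SD, n = 2 pairs) on the same scale, and a second probe averaged 0.11. The labels do not say whether these probes read the transgenes, so neither gene serves as a check of the genotypes.

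Luminal epithelial markers were well above background in all 4 tumours for 7 of 8 genes. Their summed signal was 47954 and 49642 in the Cdc25a;neu tumours and 49169 and 55655 in the neu tumours of pairs 1 and 2. Their median mean log2 ratio was -0.08, and the means ran from -0.42 to 0.15. In both pairs 3 of the 8 were lower, beside 28.0% of all genes, and 2 were higher, beside 32.0%, while 3 went opposite ways. Among the markers of the 8 cell types listed, Cd4 of the T and NK cell list was not well above background on any array, and no probe was matched to Oxtr of the myoepithelial list. The other markers passed the signal filter.

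**Figure D1:**
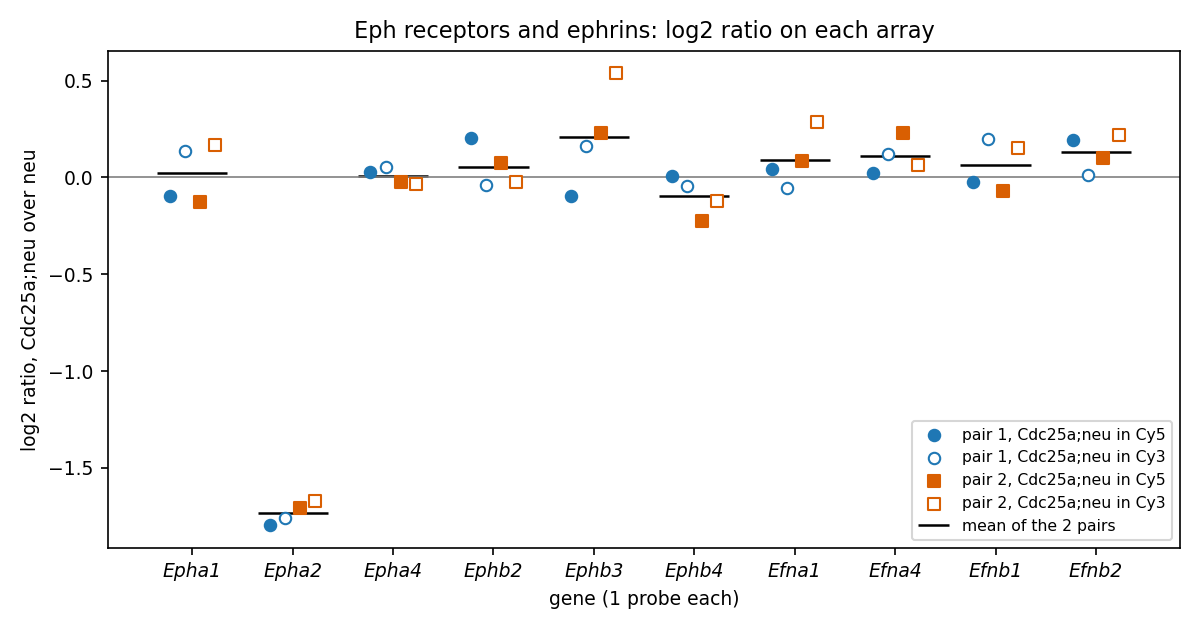
Log2 ratio of Cdc25a;neu over neu for the 10 genes on each of the 4 arrays (y axis), with 1 probe per gene (x axis). Circles are pair 1 and squares pair 2, filled symbols have Cdc25a;neu in Cy5 and open ones in Cy3, and bars are means of the 2 pairs. Epha2 sits between -1.80 and -1.67, and every other gene lies between -0.23 and 0.54.

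Epha2, the A-type receptor on which the set was chosen, was measured by 1 probe that the array named only by a contig and that a RefSeq accession listed for the probe ties to Epha2. Its log2 signal was 9.64 in the Cdc25a;neu tumour of pair 1 and 11.41 in the neu tumour hybridised with it. In pair 2 the log2 signal was 10.25 in the Cdc25a;neu tumour and 11.94 in the neu tumour. The signal was lower in both Cdc25a;neu tumours than in either neu tumour, and the pair 2 tumours were the brighter ones in both genotypes. The tumours of a pair share their arrays, so brighter tumours cannot be told apart from brighter arrays. The probe was well above background in both channels of all 4 arrays and was saturated on none.

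The log2 ratio of Epha2 was -1.80 and -1.76 on the arrays of pair 1, with Cdc25a;neu in Cy5 and in Cy3. It was -1.71 and -1.67 on the arrays of pair 2 in the same order. The dye orientation moved it by 0.04 or less on the log2 scale, and the pairs gave -1.78 and -1.69. The mean was -1.73 ± 0.06 (SD, n = 2 pairs), which is 3.32-fold lower in the Cdc25a;neu tumours. Including Epha2 itself, 13 genes or transcripts had a mean ratio at or below it, 9 of them with a current symbol, and 5 were at least as low in their less extreme pair. A ratio at least 2-fold lower in both pairs was found for 29 of 32513 genes (0.0892%), and Epha2 was the 1 member among them. Over 13 alternative settings its mean stayed between -1.80 and -1.69.

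Adipocyte markers were lower in both pairs for 8 of 10 genes, beside 28.0% of all genes, and their median mean log2 ratio was -0.94. Their medians were -0.82 in pair 1 and -1.31 in pair 2, and the means of single markers ran from -3.55 to -0.05. Their summed signal was 2803 and 3517 in the Cdc25a;neu tumours and 7892 and 19371 in the neu tumours of pairs 1 and 2. Endothelial markers, a list for cells that carry several of these receptors and ephrins, had a median of 0.07. In both pairs 0 of these 10 genes were lower, and 6 were higher, beside 32.0% of all genes. Skeletal muscle markers had a median of 0.04 in pair 1 and -1.46 in pair 2, with summed signals of 1248 and 1380 in the Cdc25a;neu tumours and 1314 and 4615 in the neu tumours. Macrophage and myeloid markers had medians of -0.25 and 0.30, and fibroblast markers -0.36 and 0.07, in pairs 1 and 2. The part of these cells in the Epha2 ratio was not tested, and in whole tumour RNA fewer cells of a type and less RNA per cell cannot be told apart.

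Epha1, another A-type receptor, had log2 signals of 8.62 and 8.60 in the Cdc25a;neu tumours and of 8.60 and 8.58 in the neu tumours. Its array ratios were -0.10 and 0.14 in pair 1 and -0.12 and 0.17 in pair 2, negative with Cdc25a;neu in Cy5 and positive with it in Cy3. The mean was 0.02, and its dye differences of -0.23 and -0.29 were larger than that mean. Epha4, a receptor that binds both ephrin classes, had log2 signals of 7.38 and 7.04 in the Cdc25a;neu tumours and of 7.34 and 7.07 in the neu tumours. The Epha4 signals were closer within a pair than within a genotype. Tumours of a pair share their arrays, however, and the pair 2 Cdc25a;neu tumour itself read 6.80 and 7.28 on its 2 arrays. A likeness of tumours therefore cannot be told apart from the shared arrays. The Epha4 array ratios lay between -0.03 and 0.05, with a mean of 0.01 ± 0.05 (SD, n = 2 pairs), and its second probe gave -0.07 ± 0.09. Of the 3 A-type receptors, the 1 past 2-fold was Epha2, which was chosen for its low ratio.

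Among the B-type receptors, Ephb2 had log2 signals of 6.33 and 6.59 in the Cdc25a;neu tumours and of 6.25 and 6.57 in the neu tumours. The Cdc25a;neu signal was well above background on 3 arrays and the neu signal on 4, and its ratios were 0.20, -0.04, 0.07 and -0.03 over the arrays. The groups overlapped, and the mean was 0.05 ± 0.04 (SD, n = 2 pairs). From the scanner's processed signals with loess the Ephb2 mean was 0.13, so the size of this dim probe's ratio depended on the processing. Ephb3 had log2 signals of 9.16 and 9.62 in the Cdc25a;neu tumours and of 9.13 and 9.23 in the neu tumours. Its ratio was 0.03 in pair 1 and 0.38 in pair 2, so its mean of 0.21 ± 0.25, the highest of the 10, came mostly from pair 2. Ephb4, the receptor of Efnb2 on venous endothelium, had log2 signals of 8.53 and 8.52 in the Cdc25a;neu tumours and of 8.54 and 8.70 in the neu tumours. Its pairs gave -0.02 and -0.17, with a mean of -0.10 ± 0.11.

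**Figure D2:**
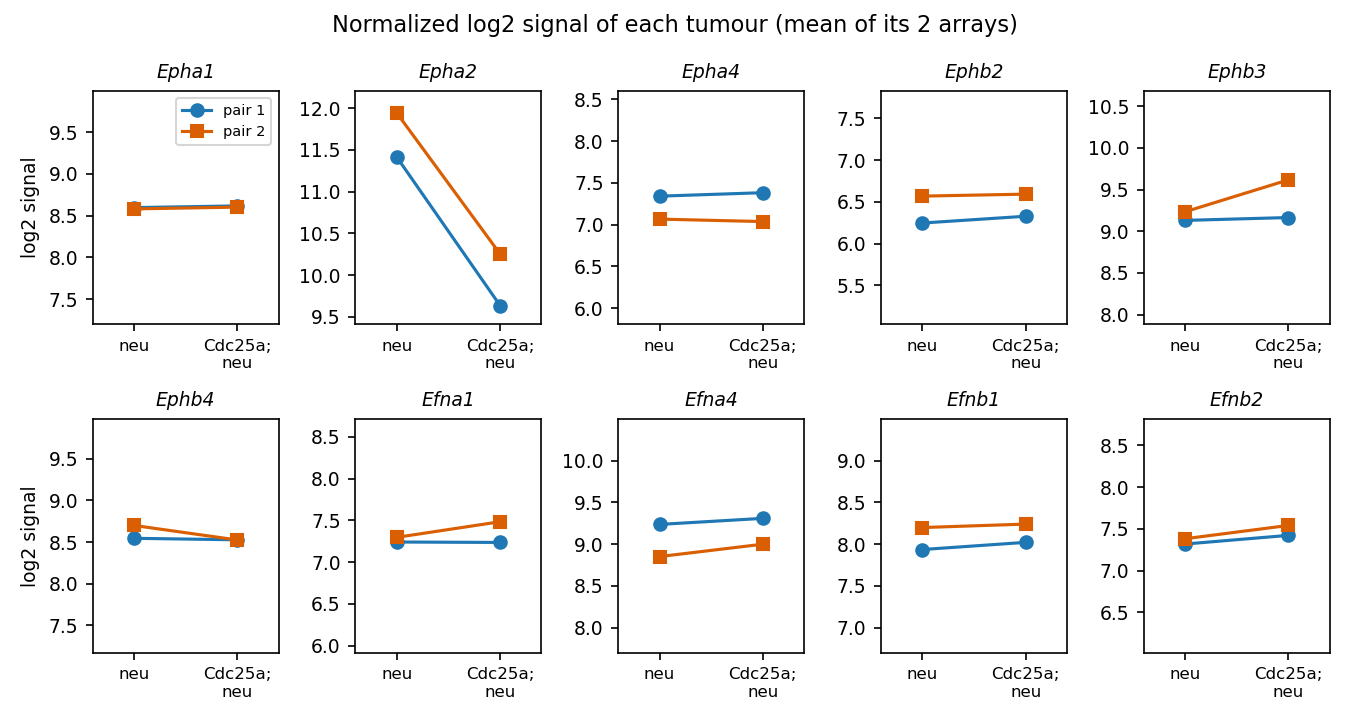
Normalized log2 signal (y axis) of each of the 10 genes in the neu and the Cdc25a;neu tumour of each pair (x axis), as the mean of the tumour's 2 arrays. Every panel spans the same height but has its own origin, because signals of different probes are not comparable. Epha2 goes from 11.41 to 9.64 in pair 1 and from 11.94 to 10.25 in pair 2, while lines of the other genes are close to level except Ephb3 in pair 2.

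Of the A-type ephrins, Efna1, a ligand of Epha2, had log2 signals of 7.24 and 7.48 in the Cdc25a;neu tumours and of 7.24 and 7.30 in the neu tumours. Its pairs gave -0.01 and 0.19, with a mean of 0.09 ± 0.14 (SD, n = 2 pairs), so the ligand had no shared direction where its receptor was lower in both pairs. Efna4 had log2 signals of 9.31 and 9.0 in the Cdc25a;neu tumours and of 9.24 and 8.85 in the neu tumours. Its array ratios were 0.02, 0.12, 0.23 and 0.07, all above 0, with a mean of 0.11 ± 0.05. The tumours of the genotypes overlapped for both ligands.

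Of the B-type ephrins, Efnb1 had log2 signals of 8.02 and 8.24 in the Cdc25a;neu tumours and of 7.93 and 8.20 in the neu tumours. Its array ratios of -0.03, 0.20, -0.07 and 0.15 followed the dye orientation, and the mean was 0.06 ± 0.03 (SD, n = 2 pairs). Efnb2, the arterial ligand of Ephb4, had log2 signals of 7.42 and 7.54 in the Cdc25a;neu tumours and of 7.32 and 7.38 in the neu tumours. Its array ratios were 0.19, 0.01, 0.10 and 0.22, with a mean of 0.13 ± 0.04, and the groups did not overlap. A second Efnb2 probe was well above background for Cdc25a;neu on 2 arrays and for neu on 0, so it gives no fold.

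Counted together, 2 of the 10 genes were lower in both pairs, Epha2 and Ephb4, beside 28.0% of all genes. The 6 genes higher in both pairs were Epha1, Ephb2, Ephb3, Efna4, Efnb1 and Efnb2, beside 32.0% of all genes, and Epha4 and Efna1 went opposite ways. Epha2 was lower on all 4 arrays, which 12.4% of all genes were, and Efna4 and Efnb2 were higher on all 4, which 14.7% were. Signals of the tumours did not overlap, with Cdc25a;neu lower, for Epha2 and Ephb4 (11.1% of all genes). They did not overlap, with Cdc25a;neu higher, for Epha1 and Efnb2 (8.67%). For Epha1 the nearest tumours of the genotypes were close, with log2 signals of 8.601 in Cdc25a;neu and 8.595 in neu. For Ephb4 they were 8.526 in Cdc25a;neu and 8.544 in neu. Nothing is read from these counts, because the set was chosen on this comparison. The median of the 10 mean log2 ratios was 0.06, and without Epha2 the other 9 ran from -0.10 to 0.21. For 4 of those 9, Epha1, Ephb2, Ephb3 and Efnb1, the difference between dye orientations had the same sign in both pairs and was larger in each than the mean ratio.

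**Figure D3:**
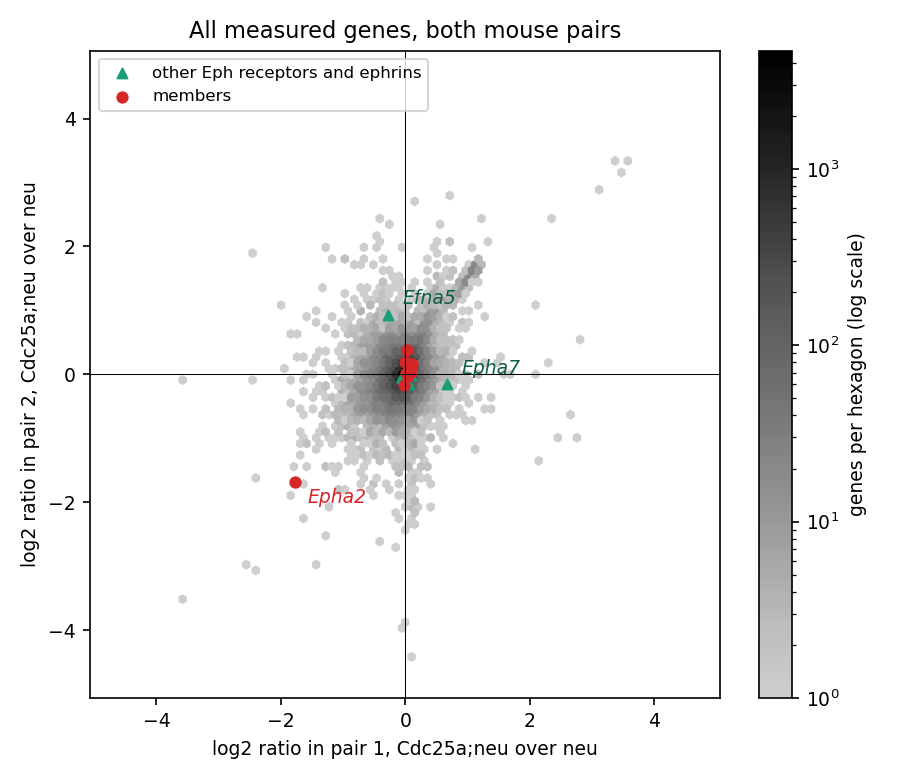
Log2 ratio of Cdc25a;neu over neu in pair 1 (x axis) against pair 2 (y axis) for all 32513 genes, as grey hexagons shaded by the number of genes on a log scale, with the 10 genes as red circles and 11 other family genes as green triangles. Epha2 lies at -1.78 and -1.69, and the other red circles lie near the centre. Efna5 and Epha7 lie off the centre along 1 axis each.

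The family has 12 further receptors and ephrins on the list used here, and 11 of them were measured; no probe was matched to Efna3. None (0) passed limma's adjusted p, and 0 had an unadjusted p under 0.05. In both pairs 5 of the 11 were lower, beside 28.0% of all genes, and 1 was higher, beside 32.0%, while 5 went opposite ways. The median was -0.02. Their means ran from -0.05 to 0.33, and apart from Epha7 and Efna5 they lay between -0.05 and 0.04. Some of these probes were dim. Epha10 was well above background for Cdc25a;neu on 3 arrays and for neu on 0, and Efna2 on 3 and 2. Ephb6 was so on 4 and 3 arrays, and Ephb1 on 3 and 4. Ratios near 0 of such dim probes do not show unchanged expression. Epha7, a receptor best known from the nervous system, had a ratio of 0.66 in pair 1 and -0.16 in pair 2, and its second probe gave 0.42 and -0.02. The brighter Efna5 probe had -0.28 in pair 1 and 0.93 in pair 2, whereas the other Efna5 probe had 0.08 and 0.07. The pairs of tumours therefore disagreed in direction for Epha7 on both its probes, and the Efna5 probes disagreed with each other. No other family member had a mean close to that of Epha2 in size.

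Proteins that carry signals from Eph receptors and ephrins inside the cell, or cut them from its surface, were listed as 42 genes, of which 39 were measured. None (0) passed limma's adjusted p, and 6 had an unadjusted p under 0.05, as had 3133 of the 32513 genes tested. In both pairs 18 were lower, beside 28.0% of all genes, and 6 were higher, beside 32.0%, while 15 went opposite ways. On all 4 arrays 9 were lower, beside 12.4% of all genes, and 3 were higher, beside 14.7%. The median mean log2 ratio was -0.09, against 0.0033 over all genes, and the range was -0.57 to 0.33. Cdc42, a small GTPase that shapes the actin cytoskeleton, had the mean of largest size, -0.57, with -0.63 in pair 1 and -0.51 in pair 2. Pdzrn3, a ubiquitin ligase with PDZ domains, had -0.69 and -0.40. Nck2, an adaptor that links tyrosine kinases to actin, had -0.19 and -0.73. Mmp14, a membrane-bound protease able to cleave Epha2, had -2.00 in pair 1 and 1.14 in pair 2. Its second probe had -0.12 and 0.08, so the Mmp14 probes differed in size and the pairs in direction.

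Likeness to Epha2 was measured as the Euclidean distance over the 4 array ratios, among genes with a current symbol. The nearest were Gdpd3, a phosphodiesterase of lipid metabolism, at a distance of 0.26, and Sp110, a nuclear body protein, at 0.40. Tsc22d3, a glucocorticoid-induced leucine zipper protein, followed at 0.46, Tmem82, a transmembrane protein, at 0.86, and G0s2, an inhibitor of triglyceride lipase abundant in fat, at 0.88. Their mean log2 ratios were -1.69 for Gdpd3, -1.90 for Sp110, -1.53 for Tsc22d3, -1.98 for Tmem82 and -1.35 for G0s2. All 5 were well above background in both channels of the 4 arrays. They share the arrays and the tumours with Epha2, so the distances describe these 4 hybridisations. Tmem82 lies on chromosome 4 like Epha2, with 7 measured genes between them, and the other 4 lie on chromosomes 1, 7 and X.

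On chromosome 4, where 892 genes were measured, 54 measured genes lie between Ephb2 and Epha2. Among the nearest measured genes on either side of Epha2, Arhgef19, an exchange factor for small GTPases, had a mean log2 ratio of -0.47 and Fbxo42 had -0.21. Spata21 had 0.49 and Hspb7 0.12. These 4 neighbours of Epha2 thus had ratios of both signs, and none was near that of Epha2 in size. Around Ephb2, whose own mean was 0.05, Luzp1 had -0.93 and the histone demethylase gene Kdm1a -0.75. Tex46 had 0.05, and the complement genes C1qb, C1qc and C1qa had -0.11, -0.60 and -0.19 in pair 1 and 0.17, 0.41 and 0.48 in pair 2. For C1qc the second pair rests on 1 array, because the spot on the other carried an outlier flag. The median of the 6 nearest measured genes, 3 on each side of Ephb2, was -0.03. Of these 6, 2 were lower in both pairs, beside 28.0% of all genes.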

How the data were processed

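The deposited scanner output of the 4 arrays gives, per the file headers, spot intensities with local background, outlier flags and a log10 ratio of red over green. Feature Extraction is version 7.2 in the submitters' processing notes and 7.5.1 in the headers. The authors' deposited value table matched the natural log of red over green, with slopes of 2.27 to 2.30 against the scanner's log10 ratio where 2.30 is expected; its column medians were 0.0209, 0.0007, 0.0209 and 0.0078, and how it was centred is not stated.

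Intensities were background-corrected by normexp (offset 50) and normalized within arrays by loess. Probes had to be well above background on 2 or more arrays, in either channel, and the brightest such probe represents its gene. Control and flagged spots were left out. Swapped arrays were turned, then arrays of the same pair were averaged, being repeats of the same RNA. All genes were tested with limma 3.58.1 (R 4.3.3) on 2 pairs, two-sided, with Benjamini-Hochberg adjustment, and the procedure was tested on simulated data.

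Of 41174 probes outside controls, 21015 were named through a RefSeq table of GRCm38.p6, which gave names and gene order only. No genome build is named in the files. The members, the lists and the rules were chosen with earlier results of these data known. Named are the members, further family genes, the 4 signalling genes with the mean of largest size, the 5 genes nearest to Epha2, chromosome 4 neighbours, Erbb2 and Cdc25a. Some items this rule would name are not reported here. With 2 mouse pairs, each on 2 arrays of the same RNA, the number of pairs limits the precision.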

Additional observations from a re-analysis of the deposited data

How the results depend on the processing

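The count of genes past limma's adjusted p was 0 except with median centring (948) and with the 4 arrays fitted and the mouse pair as a random replicate block (903). That block fit counted the 4 arrays nearly as independent, although arrays of a pair carry the same RNA. With median centring limma's lowest adjusted p was 5.3e-42 from 2 pairs, and the 948 are not read as firmer than the 0 of the main setting. With separate channels and no replicate block the count was 0. The mean ratio of Epha2 lay between -1.80 and -1.69 under all 13 alternatives, but changes of filter or of probe averaging could not move its 1 probe. Processed signals, the scanner's log ratio, median centring and the authors' table gave -1.78, -1.80, -1.69 and -1.79. The median of the 10 genes was 0.094 from processed signals with loess, 0.089 from the scanner's log ratio, 0.11 with median centring, 0.080 from the authors' table and 0.064 with only probes well above background in both channels on all 4 arrays, a filter that drops Ephb2. Leaving out an array or a pair gave medians of 0.024 to 0.082. Genes lower in both pairs numbered 1 with median centring and 1 from the authors' table, and 1 to 2 with an array left out. With either pair left out, 3 genes were lower in the pair that remained. Genes higher in both numbered 6 in the main setting, 3 with median centring, 7 from the authors' table and 5 with the filter that drops Ephb2. They numbered 4 to 5 with an array left out, and 7 were higher in the remaining pair with either pair left out. Of the values of the other 9 genes under the alternatives, 91 stayed within the spread between pairs and 25 moved by more. Leaving out a pair cannot move a mean by more than this spread. Changes of filter or of probe averaging could not move a gene with 1 probe. Part of the 91 was therefore fixed in advance. Efna1, Epha1, Epha4 and Ephb2 took both signs, and no value of these 9 genes exceeded 0.38 in size. The cause was not tested. With 2 pairs, small differences among these genes cannot be separated from the spread between tumours.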
